A study of Mus musculus with 6 samples.

Results

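The genes described here encode ATP-dependent chromatin remodelers, the machines that slide, evict or exchange nucleosomes, and their subunits. They were chosen by name, with no measured value in the rule but with earlier results of these data known. The list holds 42 genes of the 55401 in the deposited table, and all 42 were found there. They were divided by complex into 14 subunits shared by BAF and PBAF, 6 genes listed with BAF, 1 of the non-canonical BAF complex, 4 of PBAF, 5 of the ISWI family, 9 CHD genes and 3 ATPases of the INO80 and SWR1 type.

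RNA came from bone marrow cells of 6 mice that carried secondary transplants of a leukaemia driven by Hoxa9 and Meis1. The Lym group holds lymphoid leukaemic stem cells (cell type Lym+) of mice 62, 63 and 87, which had received such cells. The Lin- group holds Lin-cKit+ progenitors, also named as leukaemic stem cells, of mice 56, 57 and 91, which had received Lin- cells. All 6 mice share the Hoxa9 and Meis1 leukaemia, each gave 1 library, and neither strain, age nor the donor of each transplant is given in the sources used here. The comparison, Lym minus Lin-, asks how these 2 leukaemic stem cell populations differ. P-values measure the spread between recipient mice. As the donors are not known, this may not be the spread between independent leukaemias.

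Remodelers share a motor domain of the SNF2 type that uses ATP to pull DNA around the histone core. BAF and PBAF, the mammalian SWI/SNF complexes, open chromatin at enhancers and promoters. ISWI complexes space nucleosomes evenly, CHD proteins include the motors of the NuRD repressor complex, and INO80 and SWR1 type complexes exchange histone variants. In blood, SMARCA4 is needed by leukaemic and lymphoid progenitors, and ARID1A and PBRM1 are known as tumour suppressors in several cancers.

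Reads in genes numbered 18537700.0 to 22634286 per library, and 3 reads equalled a normalized count of 2.64 to 3.36, a floor that covers counting error only. Mitochondrial genes took 4.70% to 10.0% of reads, with values of 6.86% to 8.69% in Lym inside the Lin- range. The library of Lym mouse 62 was made from 1 ng of RNA and the others from 2 ng. Early B genes (12, of which 3 were tested) summed to 14.2 to 73.9 CPM in Lym, highest in mouse 62, and to 4.95 to 22.1 CPM in Lin-. Of the 3 tested, 2 were higher in Lym. The largest of them in every Lin- library and in Lym mouse 87 was Cd79b, which was not higher in Lym. It was at 255, 28.0 and 244 (Lym mice 62, 63, 87) versus 414, 45.8 and 284 (Lin- mice 56, 57, 91) normalized counts. Il7r, the receptor for interleukin 7, was at 424, 82.8 and 14.3 (Lym mice 62, 63, 87) versus 2.65, 3.52 and 4.13 (Lin- mice 56, 57, 91) normalized counts, and Dntt, which adds bases at antigen receptor joints, at 216, 29.1 and 4.76 (Lym mice 62, 63, 87) versus 0, 0 and 0 (Lin- mice 56, 57, 91). The recombinase gene Rag2 was at 361, 119.7 and 27.6 (Lym mice 62, 63, 87) versus 19.4, 38.7 and 13.4 (Lin- mice 56, 57, 91). Rag1, Ebf1 and Vpreb1 were at 104, 59.4 and 63.9 in mouse 62 and at most 14.3 elsewhere, whereas Pax5 reached at most 0.953 and Cd79a at most 4.48 in any library. The 5 progenitor markers summed to 2518 to 4509 CPM in Lym and to 2120.0 to 2379 CPM in Lin-. Neutrophil markers (8 genes, 3 tested, none of them higher in Lym) summed to 2533 to 2824 CPM in Lym and to 3237 to 6548 CPM in Lin-, nearly all from Mpo, Prtn3 and Elane. Monocyte and macrophage markers (6 genes, 5 tested, none higher in Lym) summed to 354 to 515 CPM against 648 to 684 CPM, with C1qa at 0 throughout. Markers of erythroid cells stayed under 1 CPM, with the globin genes at 0 in every library. Those of T and NK cells reached 1.98 CPM, and those of stroma and endothelium, mostly Pecam1, 329 to 449 CPM in Lym against 252 to 303 CPM in Lin-. Those of megakaryocytes summed to 2.30 to 26.3 CPM in Lym against 0.901 to 2.36 CPM in Lin-, nearly all from Itga2b. Of the other megakaryocyte markers, Ppbp was at 0 in every library, and Pf4 and Gp9 reached at most 3.36 normalized counts. The part of these markers in the results was not tested.

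Lym mouse 87 lay inside or next to the Lin- range in several values below, so results are also given without it. This mouse was picked out by the same values that were then tested. P-values without Lym mouse 87 are therefore optimistic for every gene below, and they only describe how far the result depends on that mouse. In bulk RNA, fewer cells of a type and less RNA per cell cannot be told apart.

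Of the 42 genes, 39 passed the filter on low values (10 normalized counts or more in 3 or more libraries). In limma, whose p-values adjusted by Benjamini-Hochberg over all genes tested are given below wherever no other tool is named, no member reached an adjusted p under 0.05, and 0.0% of the 14273 genes tested did so. The other tools gave 0 members as well: edgeR, with 0 calls over all genes, limma-voom, and DESeq2, which called 203 genes (0.642% of all genes with a read, 0.532% as higher in Lym). At an unadjusted limma p under 0.05 there were 10 members higher in Lym, against 5.96% of all genes tested, and 1 lower, against 4.27%. In 13 of the 39 the 3 Lym values all lay above the 3 Lin- values, where this held for 8.49% of all genes tested. No member had all Lym values below all Lin- values, against 7.08%. The sign of the difference was positive for 32 of the 39 members and for 48.7% of all genes tested. The median log2 fold change was 0.18 over the tested members and -0.010 over all genes tested. These counts describe the members and carry no test of the group of genes.

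**Figure D1:**
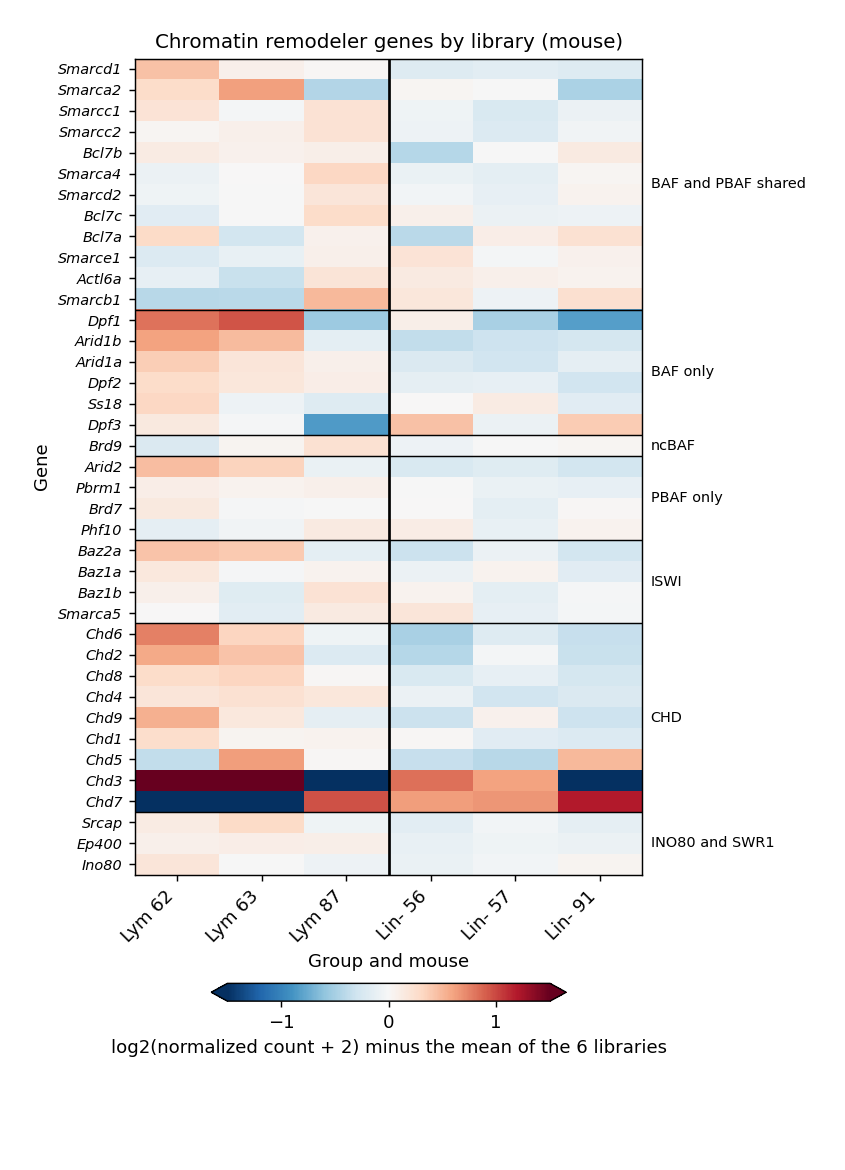
Each row is 1 of the 39 tested genes and each column 1 library; colour gives log2(normalized count + 2) minus the mean over the 6 libraries, and values beyond 1.5 in either direction have the end colour. Many rows are warmer in both Lym mice 62 and 63, and others, such as Smarcb1 and Chd7, are cooler in both or differ between them. Chd3 and Chd7 reach the ends of the colour scale.

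The 3 ARID subunits, which define whether a SWI/SNF complex is BAF or PBAF, were higher in every Lym mouse than in any Lin- mouse. This held for 8.49% of all genes tested. The share was 21.8% among the 1705 genes in the top quartile of both exon length and mean level, where all 3 ARID genes lie. Arid1a (chromosome 4, 133679008 to 133756769 in GRCm38, as are all positions here), the large DNA-binding subunit of BAF, stood at normalized counts of 23182 (mouse 62), 20292 (mouse 63) and 18941 (mouse 87) among Lym animals versus 15396 (mouse 56), 14729 (mouse 57) and 16292 (mouse 91) among Lin- animals. The groups did not overlap, the log2 fold change was 0.42 ± 0.12 (SE, adjusted p = 0.42), and the ratio of means was 1.34. Arid1b (chromosome 17, 4994332 to 5347656), which takes the same place as Arid1a in BAF, was at 13559.9 (mouse 62), 12468 (mouse 63) and 8098 (mouse 87) among Lym animals versus 6944 (mouse 56), 7224 (mouse 57) and 7484 (mouse 91) among Lin- animals. Here Lym mice 62 and 63 stood far above the rest and Lym mouse 87 just above the highest Lin- mouse, the log2 difference being 0.62 ± 0.19 (adjusted p = 0.421) and the ratio of means 1.58. Arid2 (chromosome 15, 96287518 to 96404992), the ARID subunit of PBAF, was at 7441, 6815 and 5045 (Lym) versus 4641, 4764 and 4463 (Lin-), in the same order of mice, which also holds below wherever mice are not numbered. Its log2 fold change was 0.46 ± 0.15 (adjusted p = 0.441). Without Lym mouse 87 all 3 passed in limma: Arid1a at 0.49 ± 0.11, limma adjusted p = 0.0311, Arid1b at 0.85 ± 0.10, limma adjusted p = 0.0035, and Arid2 at 0.62 ± 0.10, limma adjusted p = 0.0102. That fit called 5.49% of all genes tested as higher in Lym. Its p-values are optimistic, as the mouse was left out because of its values. With any other mouse left out instead, no member passed in limma.

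Promoter sequences are shown for Arid1a, Chd4, Chd6, Chd8, Ep400 and Smarcc2, which are among the members higher in every Lym mouse. In each the RefSeq window lies at or near the start of the deposited gene model. Not all such members are shown: in Pbrm1 and Dpf2, deposited exons cover every base of the window before its start. Of the 42 genes, 33 had a RefSeq promoter window (build GRCm38.p6), 38 windows in all, running from 250 bases before to 50 after the start. Printed are the bases before the start that no exon of the deposited table covers, 5′ to 3′. Capitals mark the GC box and the CCAAT box in either orientation.
Arid1a (chr4:133756770-133757019, minus strand): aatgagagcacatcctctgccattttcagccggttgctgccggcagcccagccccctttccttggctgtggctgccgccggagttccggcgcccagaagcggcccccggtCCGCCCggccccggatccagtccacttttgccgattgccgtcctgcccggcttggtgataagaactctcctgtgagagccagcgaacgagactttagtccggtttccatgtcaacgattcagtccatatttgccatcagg
Chd4 (chr6:125095731-125095980, plus strand): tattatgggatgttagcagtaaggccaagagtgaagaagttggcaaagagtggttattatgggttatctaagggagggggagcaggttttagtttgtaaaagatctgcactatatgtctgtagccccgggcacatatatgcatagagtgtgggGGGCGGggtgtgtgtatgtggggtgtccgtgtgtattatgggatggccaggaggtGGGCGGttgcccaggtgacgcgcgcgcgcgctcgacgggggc
Chd6 (chr2:161109087-161109336, minus strand): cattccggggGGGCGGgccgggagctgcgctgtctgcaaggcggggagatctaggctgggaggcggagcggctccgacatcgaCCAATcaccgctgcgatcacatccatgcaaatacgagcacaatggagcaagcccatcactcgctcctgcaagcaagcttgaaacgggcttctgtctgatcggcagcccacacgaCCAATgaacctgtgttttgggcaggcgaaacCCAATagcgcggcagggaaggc
Chd8 (chr14:52257781-52258010, minus strand): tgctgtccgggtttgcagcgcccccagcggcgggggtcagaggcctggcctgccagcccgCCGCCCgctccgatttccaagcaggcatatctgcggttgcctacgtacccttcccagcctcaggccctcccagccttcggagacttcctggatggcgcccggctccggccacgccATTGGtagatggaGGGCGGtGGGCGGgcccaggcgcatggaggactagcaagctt
Ep400 (chr5:110770718-110770948, minus strand): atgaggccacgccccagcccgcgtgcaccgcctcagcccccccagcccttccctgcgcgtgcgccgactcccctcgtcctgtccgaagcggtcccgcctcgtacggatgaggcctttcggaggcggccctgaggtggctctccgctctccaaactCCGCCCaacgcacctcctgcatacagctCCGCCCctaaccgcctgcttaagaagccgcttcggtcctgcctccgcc
Smarcc2 (chr10:128458986-128459235, plus strand): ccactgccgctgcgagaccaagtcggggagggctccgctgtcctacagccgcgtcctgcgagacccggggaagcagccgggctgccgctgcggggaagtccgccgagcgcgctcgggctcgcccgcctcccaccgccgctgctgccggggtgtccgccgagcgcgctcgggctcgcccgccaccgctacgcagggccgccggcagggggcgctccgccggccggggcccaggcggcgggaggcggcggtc
The stretch of Smarcc2 holds neither box, the other 5 hold GC boxes, and those of Chd6 and Chd8 also CCAAT boxes. Outside the printed bases, the window of Smarcc2 holds a GC box and a window of Chd4 a CCAAT box. Arid1a has another RefSeq window, not shown, with 7 GC boxes before its start.

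Remodeler promoters were rich in CpG. Their windows held a median of 31 CpG and 68.2% G and C, against 7 CpG and 52.7% over all 32851 windows. The GC box (GGGCGG) was present in 36 of 38 member windows, or 94.7%, and in 35.7% of all windows. CCAAT was in 28.9% of member windows and 37.4% of all windows. The other motifs were searched on both strands too, and no motif contains another. CACGTG was in 7.89% of member windows (7.15% of all), TGTGGT in 5.26% (16.8%), TGACAG in 10.5% (19.2%) and AAGATGGC in 2.63% (2.75%). The NRF1 motif, CCGGAAGT, TGACGTCA and TGATTTAT were in no member window and in 0.971%, 3.89%, 1.79% and 0.977% of all windows. A match describes letters only, and the members were not compared with the windows of expressed genes alone. The windows of Actl6b and Smarca1, genes with at most 4 reads here, also held a GC box.

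The motor subunits of BAF and PBAF did not separate the groups. Smarca4, the ATPase BRG1 (chromosome 9, 21616169 to 21704230), was at 11109 (mouse 62), 11878 (mouse 63) and 14693 (mouse 87) among Lym animals versus 11005 (mouse 56), 10650.5 (mouse 57) and 12044 (mouse 91) among Lin- animals, highest in Lym mouse 87, the log2 difference being 0.15 ± 0.13 (adjusted p = 0.688). Smarca2, the alternative ATPase BRM, was at 3371, 4271 and 2057 (Lym) versus 2833, 2772 and 2010.2 (Lin-). It was lowest in Lym mouse 87 and Lin- mouse 91, which together held the highest values of Smarca4. Its log2 fold change was 0.30 ± 0.26 (adjusted p = 0.686), and 0.07 without Lym mouse 63 and 0.60 without Lym mouse 87 (adjusted p = 0.0619). Scaled to exon length and library total (RPKM), Smarca4 was at 93.9 ± 15.7 in Lym and 86.2 ± 3.83 in Lin- and Smarca2 at 10.9 ± 3.68 in Lym and 8.87 ± 1.77 in Lin- (SD, n = 3 each), so that Smarca4 gave 86.0% to 94.0% of the RNA of the pair in every library.

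Among the scaffold subunits, 3 genes had groups that did not overlap, all with Lym higher, as in 8.49% of all genes tested. Smarcc1 (BAF155), a core scaffold protein, was at 12309, 10451 and 12432 (Lym) versus 10188, 9087 and 10045 (Lin-). Smarcc2 (BAF170), its paralog, was at 6967, 7167 and 7887 (Lym) versus 6477, 5927 and 6589 (Lin-). Both were higher in all Lym mice by a narrow margin, with log2 fold changes of 0.26 ± 0.12 and 0.21 ± 0.11 (adjusted p = 0.49 and 0.524). Smarcd1 (BAF60a), a subunit that contacts transcription factors, was at 1691, 1313 and 1259.6 (Lym) versus 1089.5, 1111 and 1084 (Lin-). Its log2 fold change was 0.36 ± 0.15 (adjusted p = 0.466), and 12.7% of its exon bases also belong to other gene models. Smarcd2 (BAF60b), known for its part in granulocyte development, was at 2691 ± 246 in Lym and 2548 ± 154 in Lin- (SD, n = 3 each), within the spread between mice.

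Smarcb1 (SNF5), a core subunit lost in rhabdoid tumours, was lower in 2 of the Lym mice and higher in the third. It was at 1244 (mouse 62), 1253 (mouse 63) and 2337 (mouse 87) among Lym animals versus 1878 (mouse 56), 1577 (mouse 57) and 1959 (mouse 91) among Lin- animals: the values of Lym mice 62 and 63 lay below every Lin- value and that of Lym mouse 87 above them all. The log2 fold change was -0.22 ± 0.24 (adjusted p = 0.755), and -0.52 ± 0.13, limma adjusted p = 0.0414 without Lym mouse 87, in a fit that called 4.18% of all genes as lower in Lym. Smarce1, the HMG-domain subunit, was at 2144 ± 208 in Lym and 2390.0 ± 194 in Lin-, and the actin-like Actl6a at 1487 ± 282 in Lym and 1661 ± 45.1 in Lin- (SD, n = 3 each). The groups overlapped in both. The BCL7 genes, which encode small subunits bound to the motor, also overlapped: Bcl7a was at 1013 ± 197 in Lym and 983 ± 214 in Lin-, Bcl7b at 862 ± 16.7 in Lym and 764 ± 147 in Lin- and Bcl7c at 632 ± 99.1 in Lym and 599 ± 39.0 in Lin- (SD, n = 3 each). Of the 12 tested shared subunits 9 had a positive and 3 a negative difference, against 48.7% positive over all genes tested. Their median log2 fold change was 0.11 (0.033 without Lym mouse 87, 0.059 with library weights).

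Subunits known from neurons or muscle were at or near the floor. Actl6b (BAF53b), the neuronal partner of Actl6a, had 4 reads in Lym mouse 63 and 0 in every other library. Smarcd3 (BAF60c), known from heart and muscle, had 1 to 30 reads, and 48.2% of its exon bases are shared with other gene models. Smarca1, the neuronal ISWI motor, had 1 read (mouse 63) and 4 reads (mouse 87), both Lym, and 0 elsewhere. These 3 genes did not pass the filter. Dpf1 and Dpf3, neuronal and muscle forms of the DPF subunit, passed it at 5.16 to 22.4 and 8.57 to 23.8 normalized counts and had overlapping groups.

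Dpf2, the DPF subunit that reads histone acetylation in most tissues, was at 1808 (mouse 62), 1677 (mouse 63) and 1602 (mouse 87) among Lym animals versus 1363 (mouse 56), 1368 (mouse 57) and 1222 (mouse 91) among Lin- animals. Every Lym value exceeded every Lin- value, and the log2 fold change was 0.36 ± 0.12 (adjusted p = 0.441). Ss18, the BAF subunit fused in synovial sarcoma, was at 1951 ± 367 in Lym and 1899.8 ± 189 in Lin- (SD, n = 3 each), the log2 difference being 0.027 ± 0.16. Brd9, the bromodomain protein of non-canonical BAF, was at 1879 ± 283 in Lym and 1814 ± 68.1 in Lin-, the log2 difference being 0.04 ± 0.14. Over the 6 genes listed with BAF the median log2 fold change was 0.39. In 3 of them Lym was higher without overlap, against 8.49% of all genes tested.

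In PBAF the groups were apart in Arid2 and, more narrowly, in Pbrm1. Pbrm1, the subunit with several bromodomains in a row, was at 6309.5 (mouse 62), 6103 (mouse 63) and 6197 (mouse 87) among Lym animals versus 5866 (mouse 56), 5498 (mouse 57) and 5389 (mouse 91) among Lin- animals. The lowest Lym and the highest Lin- value were close, and the log2 fold change was 0.15 ± 0.10 (adjusted p = 0.594). Brd7, a bromodomain subunit, was at 4110.2 ± 259.6 in Lym and 3891 ± 238 in Lin-, and Phf10, the PHD-finger subunit, at 1786 ± 171 in Lym and 1834 ± 144 in Lin- (SD, n = 3 each), both with overlapping groups. The median over the 4 PBAF genes was 0.12.

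**Figure D2:**
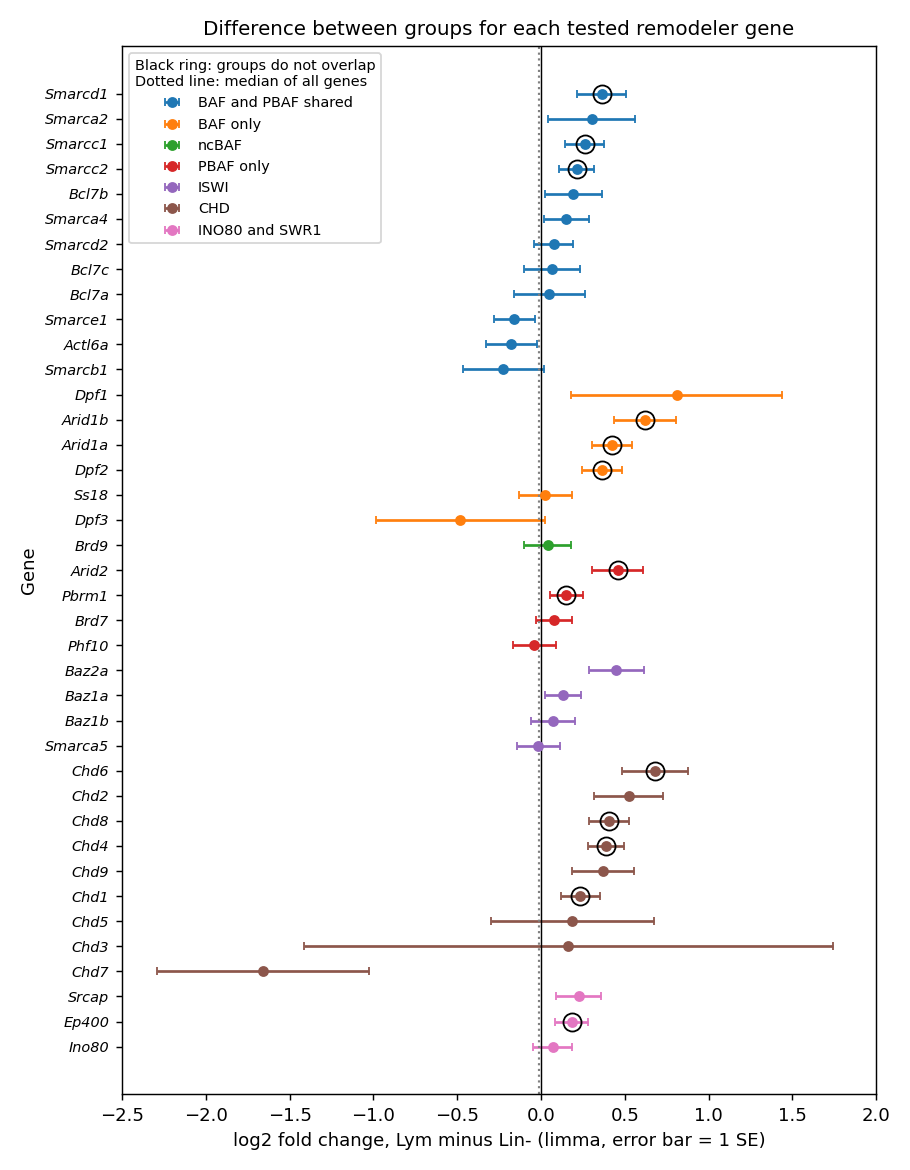
Points are log2 fold changes (Lym minus Lin-) of the 39 tested genes with bars of 1 SE from limma, coloured by complex; black rings mark the 13 genes whose groups do not overlap. Every ringed gene lies to the right of 0, and the bar of Chd3 spans both directions.

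In the ISWI family the groups overlapped in the motor and in every tested accessory subunit. Smarca5 (SNF2H), the ISWI motor of blood cells, was at 4570.1 (mouse 62), 4089 (mouse 63) and 4986 (mouse 87) among Lym animals versus 5167 (mouse 56), 4186 (mouse 57) and 4452 (mouse 91) among Lin- animals, the log2 difference being -0.016 ± 0.13 (adjusted p = 0.973). Baz2a (TIP5), which directs Smarca5 to silent ribosomal DNA, was at 7497, 7332 and 5061 (Lym) versus 4467, 5275 and 4628 (Lin-). Lym mice 62 and 63 stood apart from the others, while Lym mouse 87 lay inside the Lin- range, and the log2 fold change was 0.45 ± 0.17 (adjusted p = 0.452). Without Lym mouse 87 it was 0.63 ± 0.11, limma adjusted p = 0.0126, in a fit that called 5.49% of all genes tested as higher in Lym. Baz1a (ACF1), a nucleosome-spacing partner, was at 8741 ± 543 in Lym and 7983 ± 609.9 in Lin-, and Baz1b (WSTF) at 13232 ± 1803 in Lym and 12537 ± 911 in Lin- (SD, n = 3 each). The 4 tested ISWI genes had a median log2 fold change of 0.10, which was 0.062, 0.067 and 0.18 without Lym mice 87, 62 and 63 in turn and 0.026 with library weights.

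Of the 9 CHD genes 8 had a positive difference, against 48.7% of all genes tested, with a median log2 fold change of 0.37. In 4 of them Lym was higher without overlap, against 8.49% of all genes tested. That share was 15.5% among genes with 6081 exon bases or more, as all 9 CHD genes have. Chd1, a nucleosome spacer at transcribed genes, was at 6445 (mouse 62), 5512 (mouse 63) and 5585 (mouse 87) among Lym animals versus 5444 (mouse 56), 4783 (mouse 57) and 4674 (mouse 91) among Lin- animals, the log2 difference being 0.23 ± 0.12 (adjusted p = 0.523). Its groups were apart by a narrow margin. Chd2, its paralog, was at 6944, 6291 and 4066 (Lym) versus 3495, 4599 and 3723 (Lin-), where Lym mouse 87 lay inside the Lin- range. The log2 fold change of Chd2 was 0.52 ± 0.21 (adjusted p = 0.462; 15.1% of its exon bases are shared with other gene models).

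Chd4 (Mi-2 beta, chromosome 6, 125095981 to 125130591), the main motor of NuRD and the member with the highest RPKM, was at 26163 (mouse 62), 26917 (mouse 63) and 25870.1 (mouse 87) among Lym animals versus 21671 (mouse 56), 18906 (mouse 57) and 19746 (mouse 91) among Lin- animals. The 3 Lym values lay close together and above all Lin- values. The log2 fold change was 0.39 ± 0.11 (adjusted p = 0.42), a ratio of means of 1.31. In RPKM Chd4 was at 159 ± 3.27 in Lym and 125 ± 10.2 in Lin- (SD, n = 3 each). Chd5, the neuronal NuRD motor, was at 19.1, 40.3 and 25.7 (Lym) versus 19.4, 18.5 and 36.1 (Lin-), or 17 to 36 reads per library.

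Chd3 (Mi-2 alpha, chromosome 11, 69343273 to 69369406), the alternative NuRD motor, had the widest spread of log2 values between mice of a group among the tested members, in Lym and in Lin-. It was at 2902 (mouse 62), 2057 (mouse 63) and 26.7 (mouse 87) among Lym animals versus 928 (mouse 56), 798 (mouse 57) and 162 (mouse 91) among Lin- animals, from 28 reads in Lym mouse 87 to 2588 in Lym mouse 62. Lym mice 62 and 63 were highest, Lin- mice 56 and 57 intermediate, and Lym mouse 87 and Lin- mouse 91 lowest. The log2 fold change was 0.16 ± 1.58 (adjusted p = 0.978), and it changed sign with the mouse left out: 2.30 ± 0.62, limma adjusted p = 0.0485 without Lym mouse 87, but -1.03, -0.78 and -0.63 without Lym mouse 62, Lym mouse 63 and Lin- mouse 91. Without Lym mouse 87 limma called 5.49% of all genes tested as higher in Lym, and edgeR and DESeq2 did not call Chd3 (adjusted p = 0.061 and 0.136). Its share of NuRD motor RNA (Chd3, Chd4 and Chd5, per length) was 9.53%, 6.76% and 0.0978% among Lym animals (mice 62, 63, 87) versus 3.91%, 3.85% and 0.772% among Lin- animals (mice 56, 57, 91). No exon of another gene model overlaps those of Chd3.

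Chd7 (chromosome 4, 8690406 to 8867659), a motor bound at enhancers and mutated in CHARGE syndrome, was the only member with an unadjusted limma p under 0.05 that was lower in Lym. It was at 757 (mouse 62), 772 (mouse 63) and 4906 (mouse 87) among Lym animals versus 3919 (mouse 56), 4010.4 (mouse 57) and 5766 (mouse 91) among Lin- animals. Lym mice 62 and 63 lay far below the others and Lym mouse 87 inside the Lin- range. The log2 fold change was -1.66 ± 0.63 (adjusted p = 0.46). Without Lym mouse 87 it was -2.55 ± 0.17, limma adjusted p = 0.000291.

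Chd6, Chd8 and Chd9, of the same subfamily, had positive differences. Chd6 (chromosome 2, 160946978 to 161109075) was at 6206 (mouse 62), 4595 (mouse 63) and 3498 (mouse 87) among Lym animals versus 2622 (mouse 56), 3208 (mouse 57) and 2876 (mouse 91) among Lin- animals. All Lym values lay above the Lin- values, the log2 difference being 0.68 ± 0.20 (adjusted p = 0.421) and the ratio of means 1.64. Chd8, a motor often mutated in autism (chromosome 14, 52198151 to 52257780), was at 8439, 8743 and 7101 (Lym) versus 5954, 6453 and 5843 (Lin-), again without overlap, the log2 difference being 0.41 ± 0.12 (adjusted p = 0.421). Chd9 was at 6957, 5383 and 4382 (Lym) versus 3849.9, 5043 and 3891 (Lin-), with overlapping groups, the log2 difference being 0.37 ± 0.19 (adjusted p = 0.521). Chd7 gave 4.61% and 5.29% of the RNA of this subfamily per length in Lym mice 62 and 63, 30.7% in Lym mouse 87 and 27.3% to 38.4% in Lin-.

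**Figure D3:**
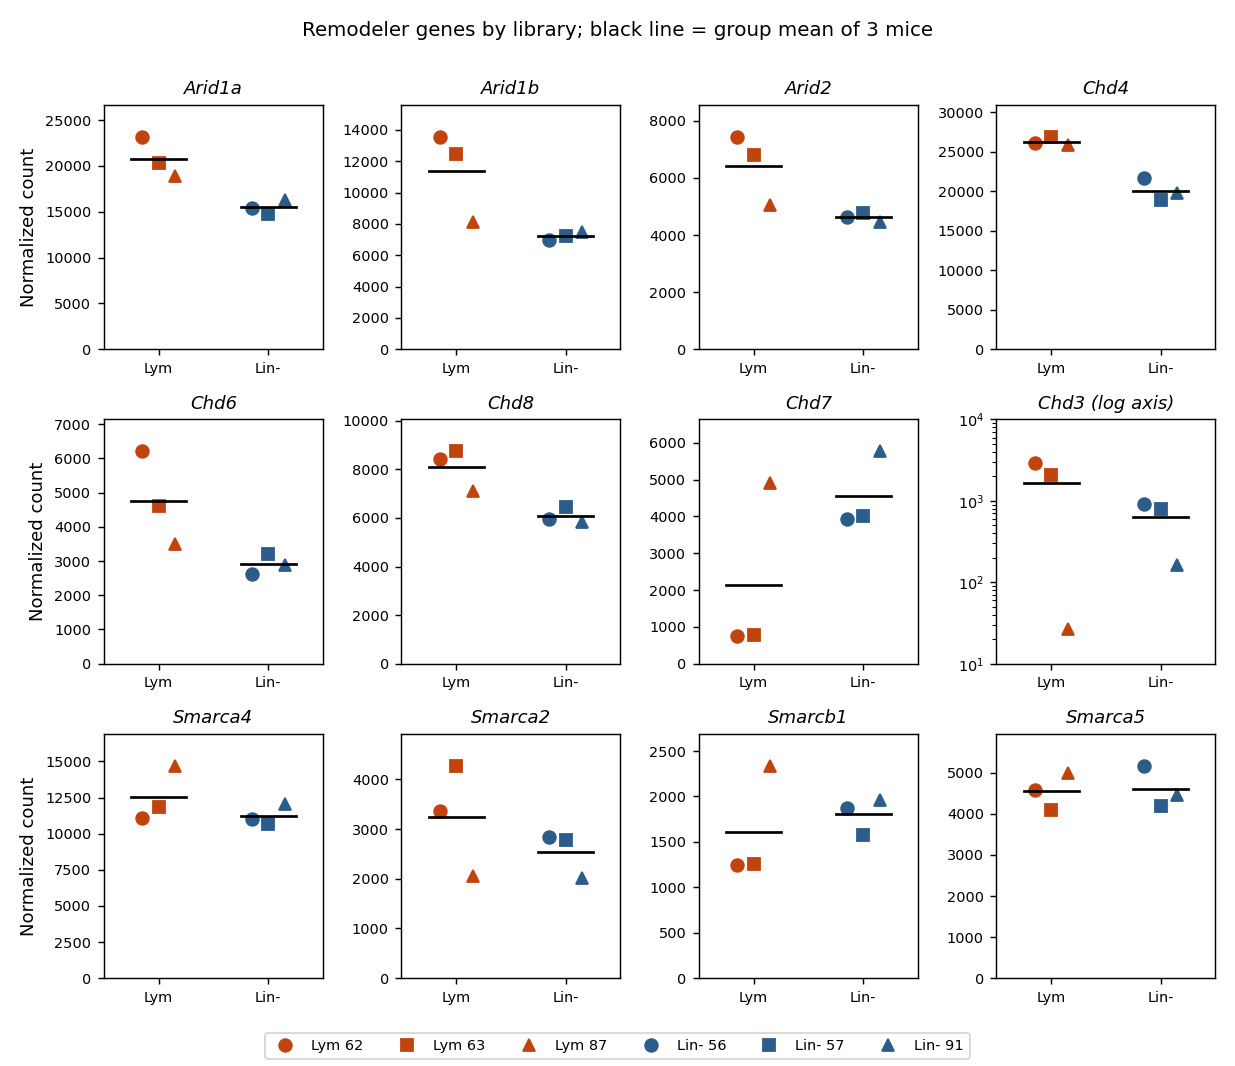
Normalized counts of 12 remodeler genes, 1 point per mouse, with black lines for group means; axes start at 0 except that of Chd3, which is a log axis, and marker shapes only tell the mice of a group apart. The ARID genes, Chd4, Chd6 and Chd8 show groups apart, while Chd7, Chd3 and Smarcb1 place Lym mouse 87 away from Lym mice 62 and 63.

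Ep400, the motor of the TIP60 complex, was at 12566 (mouse 62), 12736 (mouse 63) and 12669.7 (mouse 87) among Lym animals versus 10957 (mouse 56), 11357 (mouse 57) and 11143 (mouse 91) among Lin- animals, tight within each group and without overlap. Its log2 fold change was 0.18 ± 0.10 (adjusted p = 0.533), a ratio of means of 1.13. Ino80 was at 3229.9, 2848 and 2716 (Lym) versus 2664, 2767 and 2934 (Lin-), the log2 difference being 0.069 ± 0.12 (adjusted p = 0.848). Srcap, which loads the histone variant H2A.Z, was at 1338, 1496 and 1175 (Lym) versus 1102, 1192 and 1120.1 (Lin-), the log2 difference being 0.23 ± 0.13 (adjusted p = 0.573). Counts of Srcap are uncertain, as 65.0% of its exon bases lie in other gene models. The median over these 3 genes was 0.18.

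Related genes were compared by their log2 ratio within each library, in 16 pairs where both genes passed the filter. Some pairs join genes of different complexes, such as Arid1a to Arid2, Dpf2 to Phf10 and Brd7 to Brd9. With 3 mice against 3 the smallest two-sided exact permutation p is 0.1, so no pair could pass 0.05. Only the ratio of Chd6 to Chd9 had groups that did not overlap, at -0.24 ± 0.081 in Lym and -0.55 ± 0.11 in Lin- (SD, n = 3 each; exact permutation p = 0.1, adjusted p = 0.96 over the 16 pairs). The ratio of Smarca4 to Smarca2 was 2.01 ± 0.72 in Lym and 2.16 ± 0.37 in Lin- (SD, n = 3 each), highest in Lym mouse 87 (2.84) and Lin- mouse 91 (2.58). That of Arid1a to Arid1b was 0.77 and 0.70 in Lym mice 62 and 63, 1.23 in Lym mouse 87 and at least 1.03 in each Lin- mouse. The ratio of Chd7 to Chd8 was -3.48 (mouse 62), -3.50 (mouse 63) and -0.53 (mouse 87) among Lym animals and between -0.69 and -0.019 among Lin- animals. For Chd4 to Chd3 it ran from 3.17 to 9.82 within Lym alone. Ratios of Smarcc1 to Smarcc2 were 0.67 ± 0.14 in Lym and 0.63 ± 0.024 in Lin- (SD, n = 3 each).

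**Figure D4:**
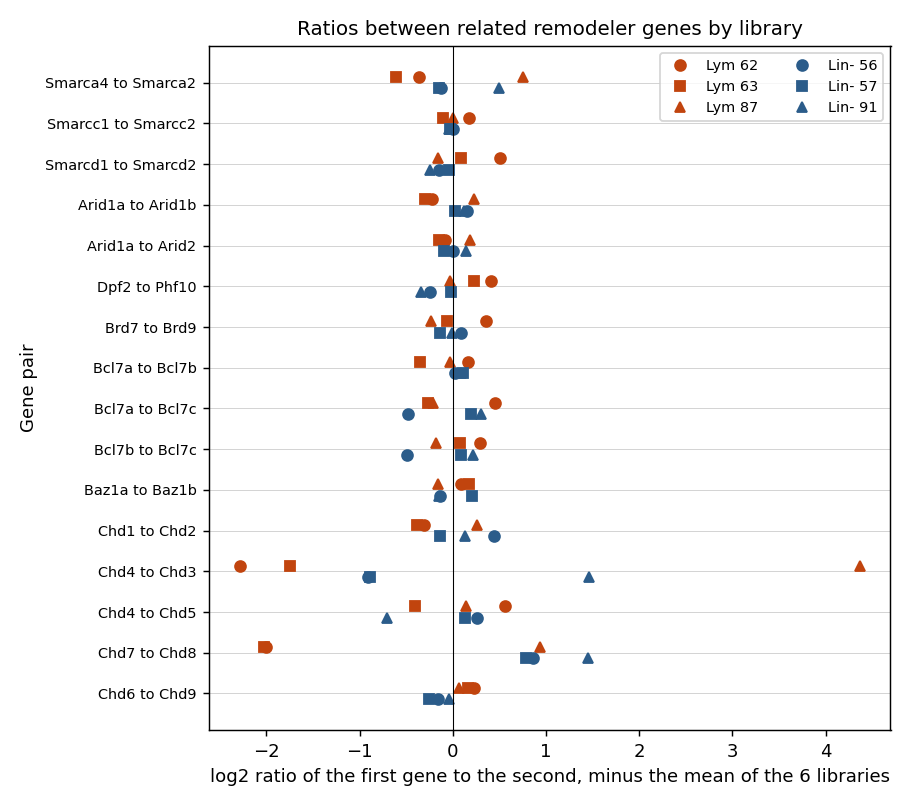
Each point is 1 library's log2 ratio between 2 related genes, centred on the mean of the 6 libraries, with Lym in rust red and Lin- in blue. Groups are apart in the pair of Chd6 and Chd9 only, and the pairs with Chd3 and Chd7 have the widest spread.

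Of 65 further genes of remodeler complexes, 63 were tested and none passed in limma at an adjusted p of 0.05. At an unadjusted p under 0.05 there were 11 with Lym higher and 1 with Lym lower (5.96% and 4.27% of all genes tested). Groups were apart in 11 with Lym higher and in 5 with Lym lower (8.49% and 7.08% of all genes tested). Their median log2 fold change was 0.070, below that of the members. Among ISWI partners 3 of 7 had a positive difference, against 48.7% of all genes tested. Bptf, the large subunit of the NURF complex, was at 15243, 12985 and 10609.7 (Lym) versus 8637, 9618 and 8714 (Lin-) (log2 fold change 0.51 ± 0.14, adjusted p = 0.421). Rsf1, a partner of Smarca5, was at 5603, 4996 and 4005 (Lym) versus 3553, 3695 and 3296 (Lin-), and Baz2b was at 5629, 4296 and 3807 (Lym) versus 2895, 3867 and 3333 (Lin-). Groups were apart in Bptf and Rsf1 and overlapped in Baz2b.

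Among 10 tested NuRD partners, 7 had a positive difference, against 48.7% of all genes tested. Mta3 was at 1189.9, 841 and 692 (Lym) versus 477, 652 and 537 (Lin-), the log2 difference being 0.68 ± 0.22 (adjusted p = 0.441), and Mta1 at 3692, 3200.3 and 3316 (Lym) versus 2845, 2823 and 3086 (Lin-). Cdk2ap1, a small NuRD subunit, was lower in every Lym mouse at 95.3, 137 and 135 (Lym) versus 155, 172 and 157 (Lin-). Of 28 partners in INO80, SWR1 and TIP60 complexes 13 had a positive difference, and the lowest p-values belonged to Ino80d (0.52 ± 0.15), Ino80b (0.35 ± 0.14) and Nfrkb (0.32 ± 0.13, log2 fold change ± SE), all with groups apart.

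Among BAF accessory genes 4 of 5 had a positive difference, against 48.7% of all genes tested. Bcl11a, a zinc-finger protein found with BAF in lymphoid and neural cells, was at 1751 (mouse 62), 1025 (mouse 63) and 21.9 (mouse 87) among Lym animals versus 9.70 (mouse 56), 43.1 (mouse 57) and 0 (mouse 91) among Lin- animals: high in Lym mice 62 and 63 and low in the other 4, the log2 difference being 5.10 ± 1.64 (adjusted p = 0.439). Bicra, a subunit of non-canonical BAF, was at 1719, 1568 and 1248 (Lym) versus 1028, 1094 and 1028 (Lin-), with groups apart, and Bicral at 2592, 1822 and 1301 (Lym) versus 1308, 1329 and 1495 (Lin-). Of 13 other SNF2-type motors 10 had a positive difference. Atrx, which keeps repeats silent, was at 17998, 14768 and 13400.5 (Lym) versus 10844, 11706 and 11031 (Lin-), and Btaf1 at 5133, 4614 and 3810.3 (Lym) versus 3541, 3875 and 3467 (Lin-). Hells, a motor needed for DNA methylation, was lower in every Lym mouse, at 3488, 2524 and 4374 (Lym) versus 4808, 4599 and 4434 (Lin-) (log2 fold change -0.45 ± 0.19, adjusted p = 0.468).

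Exon length and level moved with the difference across the whole table. Over all genes tested, the median log2 fold change went from -0.12 in the quartile of shortest genes to 0.091 in the quartile of longest genes (6081 exon bases or more), where Lym was higher without overlap in 15.5% of genes. In the quartile with the highest mean level that share was 14.7%, and in the 1705 genes in the top quartile of both it was 21.8%, with a median of 0.11. Of the 39 tested members 30 were among the longest genes, 25 among the genes long and high at once, and 11 of those 25 had Lym higher without overlap. The part of length and level in the members' values was not tested.

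Lym mouse 87 was the lowest of the 3 Lym mice in 8 of the 13 members whose groups were apart, and Lym mouse 62 the highest in 8. Without Lym mouse 87, limma put 10 members past an adjusted p of 0.05: Arid1a, Arid1b, Arid2, Baz2a, Chd2, Chd3, Chd6 and Chd8 as higher and Chd7 and Smarcb1 as lower in Lym. Over all genes that fit called 1348 of 13942, or 9.67%. With any other mouse left out instead, limma called no member, so these calls rest on the choice of Lym mouse 87. With weights per library limma called 8 members, 7 of them higher in Lym, against 4.62% of all genes tested in either direction and 2.98% higher. By the DESeq2 values in the authors' deposited table none of the 42 genes had an adjusted p under 0.05, where 0.32% of genes did. The lowest adjusted p among them there were 0.135 for Chd6 and 0.163 for Arid1b.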

How the data were processed

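Total RNA of 6 mice was sequenced, per the labels' protocols, from 1 or 2 ng with a stranded kit for picogram input, 12 PCR cycles and 38-base reads. Tools named in the submitters' processing notes are featureCounts 1.6.4, STAR 2.6.1d, DESeq2, bcl2fastq and Trim Galore 0.6.4, with the build GRCm38.p6. Strand use in counting is not given in the sources used here, so genes that overlap others are uncertain. For each library the authors deposited a signal: the count of a gene over that library's size factor. 100% of values up to 10000 were whole multiples of their library's step (tolerance 0.01), which gave whole reads. Per the file headers the authors' log2 fold change comes with its standard error and Wald statistic (score columns), p-value and adjusted p-value. The sign of the authors' log2 fold change was opposite to Lym minus Lin- in all 101 of their calls and was turned.

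Differences were tested with limma 3.58.1 (R 4.3.3, trend option) on log2(normalized count + 2) over 14273 genes reaching 10 normalized counts in 3 or more libraries. P-values were adjusted by Benjamini-Hochberg over all of them, with a threshold of 0.05. Fold changes on this scale understate those of low genes. Alternatives used edgeR 4.0.16 (count test), DESeq2 1.42.0 and limma-voom on recovered reads, other scalings, filters and pseudocounts, library weights and each mouse left out. Fits were tested on simulated data. RPKM used the deposited exon lengths. Ratios were tested by exact permutation.

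The members, families, further gene lists and pairs were chosen with earlier results of these data known. Values are given for every ATPase, for members with an unadjusted p under 0.05 or groups that do not overlap, and for the 3 genes of lowest p in each further list. Smarcb1 and the statements on single mice were chosen after their values were seen. Positions are those of the deposited table. Promoter sequences are from RefSeq (GRCm38.p6). Tables and plots were made with matplotlib 3.10.9 and pandas 2.3.3 under Python 3.11.15.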

Additional observations from a re-analysis of the deposited data

How the results depend on the processing

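No paired analysis was possible because the 2 groups share no replicate number. Counts of genes past the threshold were 0 in limma and 203 with DESeq2, 5 without a filter, 1 with a pseudocount of 8, 660 with library weights and 0 to 1348 when 1 mouse was left out. Without Lym mouse 87, a setting also run with other tools after the data were seen, edgeR called 1286 of 14840 genes and DESeq2 2047 of 29112 genes with a read. DESeq2 gave no adjusted p for some of the latter, among them Actl6b and Smarca1, so these shares cannot be set side by side. Members called were 8 with library weights and 0 to 10 with 1 mouse left out (10 without Lym mouse 87), and 9 in edgeR and 12 in DESeq2 without Lym mouse 87. Members higher in Lym at an unadjusted p under 0.05 numbered 10, and 5 to 14 with 1 mouse left out (14 without Lym mouse 87, 6 without Lym mouse 62 and 5 without Lin- mouse 91). Over all genes and in either direction, 1459 of 14273 had such a limma p with all 6 mice. This count was 3624 of 13942 without Lym mouse 87, 766 of 13926 without Lym mouse 62 and 749 of 13926 without Lin- mouse 91. Members with groups apart and Lym higher numbered 13, and 13 to 20 with 1 mouse left out (20 without Lym mouse 87), and 10 with scaling by total reads. The share over all genes tested was 8.49%, 11.5 to 21.8% with 1 mouse left out, where 1 group has only 2 mice, and 7.03% with scaling by total reads. The median over CHD genes of 0.37 was 0.35 to 0.50 with 1 mouse left out and 0.50 in DESeq2 without Lym mouse 87. Pairs with groups apart numbered 1 to 8 with 1 mouse left out, against 1.

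Of 618 log2 fold changes of members under other settings, 597 kept their sign. The 21 others were Chd3 (-0.052 in limma-voom, -1.03, -0.78 and -0.63 without Lym mouse 62, Lym mouse 63 and Lin- mouse 91), Bcl7a (-0.17 with weights, -0.085 and -0.14 without Lym mouse 62 and Lin- mouse 56), Ss18 (-0.015 with scaling by total reads, -0.12 and -0.05 without Lym mouse 62 and Lin- mouse 91), Brd9 (-0.0016 by total reads, -0.063 without Lym mouse 87), and Baz1b (-0.062 with weights, -0.017 without Lym mouse 87). With 1 mouse left out they were also Bcl7c (-0.053), Chd5 (-0.081), Ino80 (-0.0028), Phf10 (0.017 and 0.008) and Smarca5 (0.059 and 0.071). The cause was not tested. With 1 mouse left out in turn, these 10 log2 fold changes ranged from -1.03 to 2.30 for Chd3, from -0.14 to 0.20 for Bcl7a, from -0.12 to 0.13 for Ss18, from -0.063 to 0.16 for Brd9, from -0.017 to 0.18 for Baz1b, from -0.053 to 0.17 for Bcl7c, from -0.081 to 0.48 for Chd5, from -0.0028 to 0.12 for Ino80, from -0.11 to 0.017 for Phf10, from -0.084 to 0.071 for Smarca5. The median over all genes was 0.19 in DESeq2 and 0.15 without a filter, both of which include many low genes, and from -0.052 to -0.00083 under the other settings on all 6 libraries. Actl6b and Smarca1 had at most 4 reads in any library, so a difference in them was not detectable at this depth.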
